A study of Mus musculus with 8 samples.

Results

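The genes described here are 10 components of Notch signaling: the 4 receptors (*Notch1*, *Notch2*, *Notch3* and *Notch4*), 3 of their ligands (*Jag1*, *Jag2* and *Dll1*) and the 3 fringe glycosyltransferases (*Lfng*, *Mfng* and *Rfng*). They were chosen by name, as the rows of the count tables whose Ensembl gene carries one of these symbols in the NCBIM37 (mm9) annotation, and make up 10 of the 36536 genes counted. They were measured by RNA-seq in cells sorted from freshly dissected cochleas. The mice carried the *Lfng-GFP* BAC transgene (strain B6;FVB-Tg(Lfng-EGFP)HM340Gsat/Mmucd) and were taken at postnatal day (P) 1 or P6. At each age the brightest GFP+ cells, taken as supporting cells, were separated from GFP- cells, taken as all other cell types of the cochlea, which gave the groups P1 GFP+, P1 GFP-, P6 GFP+ and P6 GFP- with 2 replicate libraries each. All 4 groups carried the transgene and received no treatment or culture. GFP was driven by *Lfng* regulatory sequence. Cells with weak GFP were left out, and the paper takes them as likely inner pillar and inner hair cells. Some supporting cells and some hair cells may therefore be in neither fraction.

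Notch receptors are single-pass membrane proteins that are cut and activated when a Jagged or Delta ligand on a neighboring cell binds and pulls on them. The freed intracellular part enters the nucleus and, with the DNA-binding protein RBPJ, turns on targets such as the *Hes* and *Hey* repressors. Fringes add a sugar to the receptor's extracellular domain in the Golgi and thereby change which ligands activate it. In the cochlea, Notch signaling first helps to set up the prosensory domain, where *Jag1* is the main ligand, and later lets hair cells, through *Dll1* and *Jag2*, keep their neighbors as supporting cells.

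Levels are given as CPM, the count of a gene scaled to the same total of gene counts in every library, and levels of different genes are compared only as CPM per kilobase of exon sequence. The libraries held 17769024 to 67695039 counts on genes, the lowest total being that of P6 GFP+ replicate 1, and the smallest count of any of the 10 genes was 29 (*Dll1* in that library). Each comparison rests on 2 libraries a side, and since nothing states that the replicates came from separate animals, p-values measure only the spread between these samples, which may be technical. By the cell numbers in the paper, each GFP+ library pooled cells of many cochleas, and whether the pools shared animals is not stated. Of 8 supporting cell markers, 7 were called higher in GFP+ cells at each age. The exception was *Slc1a3*, which was lower at P1 and not called at P6. The summed supporting cell markers stood at 4298 to 6105 CPM in GFP+ and 587 to 627 CPM in GFP- libraries. Of 10 hair cell markers, 7 were called higher in the GFP+ fraction at P1 and 6 were at P6, *Atoh1*, *Pou4f3*, *Gfi1*, *Otof*, *Barhl1* and *Espn* at both ages, and their sum was 451 to 866 CPM in GFP+ and 355 to 479 CPM in GFP- libraries. The GFP+ fraction therefore held supporting cell and hair cell transcripts, and a level in it is not that of supporting cells alone.

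The P6 GFP+ replicates stood apart from each other in markers of non-epithelial cells. In replicate 1 and replicate 2 the 8 endothelial markers summed to 90.3 and 326 CPM, the 6 mesenchyme markers to 995 and 2859 CPM and the 8 pericyte and smooth muscle markers to 109 and 289 CPM. All of these markers were higher in replicate 2 (8 of 8, 6 of 6 and 8 of 8). The Schwann cell markers summed to 1188 and 2427 CPM in these replicates, beside 1481 and 1712 CPM in P6 GFP- cells. The melanocyte markers summed to 33.9 and 99.0 CPM. Of these, 5 of 6 and 5 of 5 were higher in replicate 2. The P1 GFP+ replicates had 38.3 and 33.5 CPM of the endothelial and 340 and 314 CPM of the mesenchyme markers, while the GFP- libraries held 363 to 442 CPM and 13428 to 18224 CPM. None of the endothelial, mesenchyme or pericyte markers was at 0 in any library. Where leaving out P6 GFP+ replicate 2 changed a call of a gene among the 10, the value without it is given. The same holds for the pathway lists in P6 GFP+ against GFP- cells. With age and in the interaction the calls of the pathway lists changed too, and only ranges over the left-out replicates are given.

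**Figure D1:**
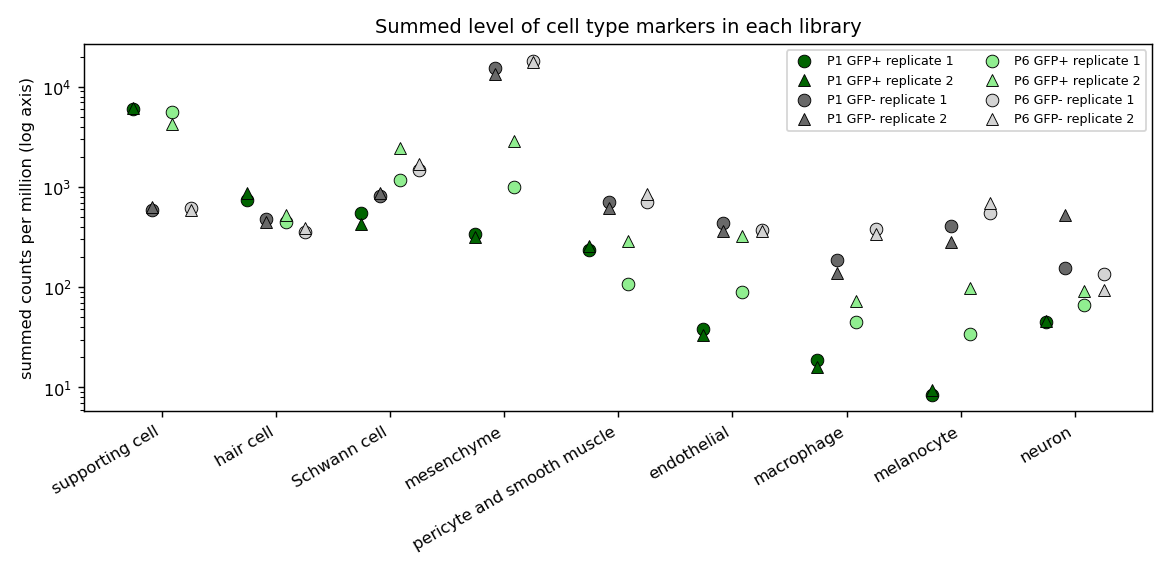
Summed CPM (log axis) of 9 lists of cell type markers in each of the 8 libraries. Circles are replicate 1 and triangles replicate 2, green GFP+ and grey GFP-, dark P1 and light P6. The endothelial markers of P6 GFP+ replicate 2 (326 CPM) lie near the GFP- libraries (363 to 442 CPM), those of replicate 1 (90.3 CPM) between these and P1 GFP+ (33.5 and 38.3 CPM).

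In P1 GFP+ cells *Lfng* was the most abundant of the 10 genes per kilobase, followed by *Jag1*, *Notch1* and *Notch3*. The means were 1157 ± 112 (SD, n = 2) for *Lfng*, 337 ± 18.8 for *Jag1*, 79.6 ± 2.56 for *Notch1* and 63.3 ± 4.34 CPM per kb for *Notch3*. By this measure *Lfng* stood 17th and *Jag1* 76th among the 23738 genes above 0 with an annotated length. *Jag2*, *Rfng* and *Mfng* came next at 18.9, 13.2 and 10.6 CPM per kb, and *Notch2*, *Dll1* and *Notch4* were lowest at 2.57, 0.79 and 0.46 CPM per kb. No pair of neighbors in this order overlapped in its 2 libraries. With the longest transcript as the length, *Mfng* (16.2 CPM per kb) stood above *Rfng* (13.3). In P6 GFP+ cells *Lfng* (20th of 23203 genes) and *Jag1* (166th) again led with 1341 ± 431 and 214 ± 18.4 CPM per kb, while *Notch1* and *Notch3* overlapped at 27.2 ± 8.72 and 26.6 ± 3.58 CPM per kb. The pairs *Mfng* and *Jag2*, and *Notch2* and *Notch4*, also overlapped at P6.

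The order in GFP- cells was different, with *Notch2* first at 26.8 ± 3.11 CPM per kb at P1 and 24.3 ± 2.10 at P6. At P1 it was followed by *Notch1* (19.4 CPM per kb), *Jag1* (18.3), *Rfng* (17.9) and *Notch3* (16.7), each overlapping with the next. At P6 *Rfng* (19.1 CPM per kb) came second, and *Notch1*, *Lfng*, *Notch3* and *Jag1* followed between 16.4 and 12.3 CPM per kb, each overlapping with the next. *Dll1* and *Mfng* were the lowest pair in both GFP- groups, between 0.81 and 1.78 CPM per kb. *Notch1* has 14232 bases of exon sequence over all transcripts but only 9488 in its longest one, and with the longest transcript as the length its mean stood above that of *Notch2* in GFP- cells at both ages (29.1 against 26.8 and 24.6 against 24.3 CPM per kb), though *Notch2* was the higher in replicate 1 of each age.

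**Figure D2:**
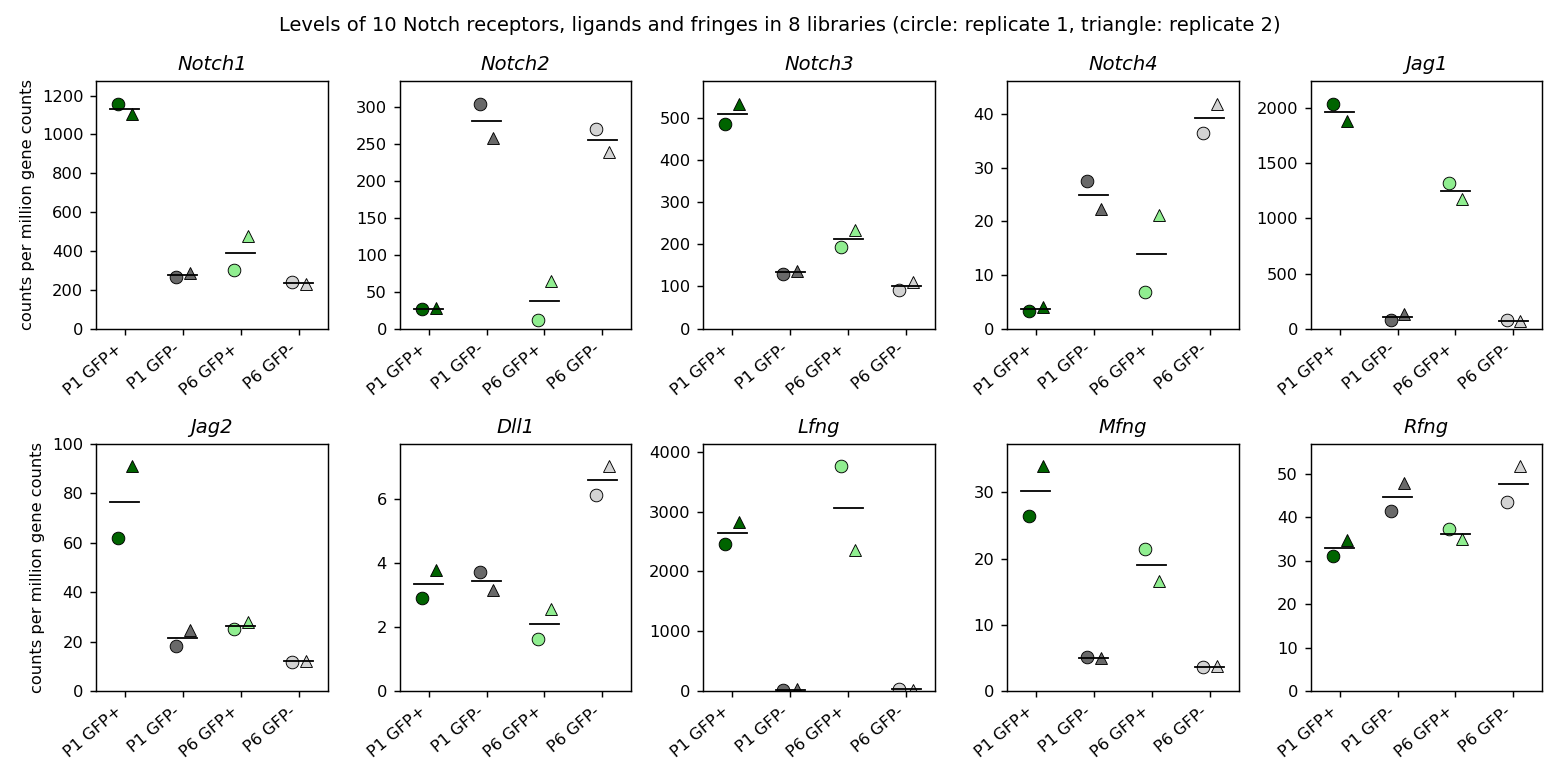
CPM (y axis, from 0, a separate scale for each gene) of the 10 genes in the 4 groups. Circles are replicate 1, triangles replicate 2 and the line is their mean. *Notch1*, *Notch3*, *Jag1*, *Jag2*, *Lfng* and *Mfng* were higher in both GFP+ libraries than in both GFP- libraries at each age, *Notch2*, *Notch4* and *Rfng* were lower.

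GFP+ cells were compared with GFP- cells at each age to ask which components the sorted supporting cells carry beyond the rest of the cochlea. A gene was called when p and the adjusted p of edgeR's quasi-likelihood test over all genes were below 0.01. *Lfng* is described but not counted here, because its regulatory sequence selected the cells. At P1, 5 of the other 9 genes were called higher in GFP+ cells (*Notch1*, *Notch3*, *Jag1*, *Jag2* and *Mfng*), where 16.6% of all genes tested were, and 2 were called lower (*Notch2* and *Notch4*), where 20.7% were. Among these, 4 higher and both lower genes changed more than 4-fold, as did 6.46% and 11.4% of all genes. At P6, 4 of 9 were called higher (*Notch3*, *Jag1*, *Jag2* and *Mfng*, against 7.72% of all genes), of which *Jag1* and *Mfng* exceeded 4-fold (4.88% of all genes). At P6 edgeR called 0 of 9 lower (5.19% of all genes, 3.1% past 4-fold), while 3 had an unadjusted p below 0.05 and DESeq2 called 1 (*Dll1*). The median log2 change of the 9 genes was 1.92 at P1 and 0.72 at P6, beside 0.01 and -0.02 over all genes tested. The P1 calls of these 9 genes were the same in number with DESeq2, and each of the 7 was kept when any 1 library was left out.

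Leaving out a library also moved the number of calls over all genes, against which single calls have to be read. At P6 edgeR called 1413 of 18294 genes higher and 950 lower with all 4 libraries. Without P6 GFP- replicate 1 it called 359 higher and 7 lower of 18188, and without P6 GFP- replicate 2 it called 0 of 18019 in either direction, so that no gene could keep a call there. Without P6 GFP+ replicate 1 the counts were 2803 and 2851 of 19334, and without P6 GFP+ replicate 2 they were 3428 and 4339 of 19183. At P1 they ran from 1564 to 4642 higher and from 2108 to 5412 lower, and were lowest without a P1 GFP+ replicate.

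The receptors divided into 2 pairs at P1, *Notch1* and *Notch3* being higher and *Notch2* and *Notch4* lower in GFP+ than in GFP- cells. *Notch1* (ENSMUSG00000026923, chr2:26313423-26372183, minus strand), the receptor of lateral inhibition in the organ of Corti, was at 1159 and 1107 CPM in P1 GFP+ and 266 and 285 CPM in P1 GFP- cells. The difference was 4.42-fold (log2 2.14 ± 0.11 SE, edgeR adjusted p = 4.21e-05). Its P6 levels were 300 and 475 CPM in GFP+ and 239 and 228 CPM in GFP- cells, so that the groups still did not overlap but the change of 1.65-fold was not called (edgeR adjusted p = 0.0780). Without P6 GFP+ replicate 1 the difference was log2 1.05 and was called (edgeR adjusted p = 0.000102), and without P6 GFP+ replicate 2 it was log2 0.38 and was not (edgeR adjusted p = 0.0685). Exons of *Gm13568* and *0610009E02Rik* cover 9.76% of the *Notch1* exon bases, and reads there cannot be assigned to 1 gene because the library kit does not mark the strand.

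*Notch3* (ENSMUSG00000038146, chr17:32257765-32303825, minus strand), best known for its role in arterial smooth muscle and pericytes, was at 485 and 534 CPM in P1 GFP+ and 130 and 138 CPM in P1 GFP- cells. It was 4.08-fold higher in GFP+ cells (log2 2.03 ± 0.10 SE, edgeR adjusted p = 3.03e-05). At P6 the values were 193 and 234 CPM in GFP+ and 91.5 and 109 CPM in GFP- cells, again without overlap, a difference of 2.12-fold (log2 1.08 ± 0.18 SE, edgeR adjusted p = 0.00995). This P6 call lay close to the threshold and was lost with library totals as the scaling (edgeR adjusted p = 0.0134), without P6 GFP- replicate 1 (log2 1.02, 0.0922) and without P6 GFP- replicate 2, where no gene was called (log2 1.20, 0.0697). The summed pericyte and smooth muscle markers went the other way. They stood at 109 to 289 CPM in the GFP+ and 617 to 857 CPM in the GFP- libraries of both ages. Of these 8 markers, edgeR called 5 lower in the P1 comparison of the fractions and 1 lower in the P6 comparison. Not called at P1 were *Acta2* (log2 -2.12), *Myh11* (log2 -0.74) and *Tagln* (log2 0.06). The part of such cells in the *Notch3* level was not tested. The overlapping gene *Gm17276* covers 6.07% of the *Notch3* exon bases.

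*Notch2* (ENSMUSG00000027878, chr3:97817461-97954290, plus strand) showed the opposite pattern. It was at 26.1 and 27.9 CPM in P1 GFP+ but 305 and 259 CPM in P1 GFP- cells, a level 9.72-fold lower in GFP+ cells (log2 -3.28 ± 0.12 SE, edgeR adjusted p = 1.51e-05). Its P6 level was 11.1 CPM in GFP+ replicate 1 and 64.3 CPM in replicate 2, both below the 271 and 239 CPM of the GFP- cells. The P6 difference was log2 -2.77 ± 0.75 SE and was not called (edgeR adjusted p = 0.0376). It was called without either GFP+ replicate, at log2 -4.50 without replicate 2 (edgeR adjusted p = 2.44e-10) and log2 -1.96 without replicate 1 (edgeR adjusted p = 4.39e-07), where the spread of the lone GFP+ library is taken from the GFP- pair.

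*Notch4* (ENSMUSG00000015468, chr17:34701213-34725448, plus strand), a receptor of vascular endothelium, was the scarcest receptor in all 4 groups per kilobase. It was at 3.29 and 4.10 CPM in P1 GFP+ and 27.6 and 22.3 CPM in P1 GFP- cells, a 6.32-fold lower level in GFP+ cells (log2 -2.66 ± 0.19 SE, edgeR adjusted p = 0.000121). At P6 it was at 6.75 and 21.2 CPM in GFP+ and 36.4 and 41.9 CPM in GFP- cells and was not called (log2 -1.49 ± 0.49 SE, edgeR adjusted p = 0.0641). Without P6 GFP+ replicate 2 the difference was log2 -2.52 (edgeR adjusted p = 2.75e-08) and without replicate 1 it was log2 -0.86 (edgeR adjusted p = 0.000466), both called. Between P6 GFP+ replicates, *Notch4* was 3.13 times and *Notch2* 5.80 times as high in replicate 2, beside 3.61 times for the summed endothelial, 2.87 times for the mesenchyme and 0.760 times for the supporting cell markers. At P1 all 8 endothelial markers were called lower in GFP+ cells, as *Notch4* was. At P6 0 of the 8 were called and their median difference was log2 0.097, where *Notch4* was at log2 -1.49. The part of these other cells in the *Notch2* and *Notch4* levels was not tested, and in sorted bulk samples fewer cells of a type and less RNA per cell cannot be told apart.

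Of the ligands, *Jag1* and *Jag2* were higher in GFP+ cells at both ages and *Dll1* was not. *Jag1* (ENSMUSG00000027276, chr2:136907192-136942380, minus strand), the ligand of the prosensory domain and of supporting cells, was at 2043 and 1888 CPM in P1 GFP+ and 76.9 and 136 CPM in P1 GFP- cells. It was 19.9-fold higher in GFP+ cells (log2 4.31 ± 0.30 SE, edgeR adjusted p = 0.000108). Its P6 levels were 1324 and 1173 CPM in GFP+ and 78.8 and 64.8 CPM in GFP- cells, a difference of 17.3-fold (log2 4.11 ± 0.25 SE, edgeR adjusted p = 0.000800). The lowest GFP+ library was far above the highest GFP- library at both ages, and this was the largest difference among the 9 genes counted at both ages. Without P6 GFP- replicate 2, where edgeR called none of all genes tested, the P6 difference was log2 3.96 (edgeR adjusted p = 0.0151).

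*Jag2* (ENSMUSG00000002799, chr12:114146801-114167706, minus strand), a ligand made by hair cells, was at 61.9 and 91.0 CPM in P1 GFP+ and 18.5 and 24.7 CPM in P1 GFP- cells, a difference of 3.78-fold (log2 1.92 ± 0.21 SE, edgeR adjusted p = 0.000672). Its P6 levels were 25.1 and 27.9 CPM in GFP+ and 11.9 and 12.3 CPM in GFP- cells, a difference of 2.17-fold (log2 1.12 ± 0.17 SE, edgeR adjusted p = 0.00745). The groups did not overlap at either age. The P6 difference was log2 1.16 without P6 GFP- replicate 1 (edgeR adjusted p = 0.0747) and log2 1.13 without P6 GFP- replicate 2 (edgeR adjusted p = 0.0869), both short of the threshold in fits that called few genes or none. The hair cell markers *Atoh1*, *Pou4f3*, *Gfi1* and *Otof* were called higher in GFP+ cells too, and their part in the *Jag2* level was not tested.

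*Dll1* (ENSMUSG00000014773, chr17:15504318-15513836, minus strand), the Delta ligand of nascent hair cells, was scarce everywhere. It was at 2.92 and 3.78 CPM in P1 GFP+ and 3.72 and 3.15 CPM in P1 GFP- cells, and these overlapping values did not differ by the test (log2 0.06 ± 0.24 SE, edgeR adjusted p = 0.855). At P6 it was at 1.63 and 2.58 CPM in GFP+ and 6.14 and 7.03 CPM in GFP- cells. The GFP+ libraries were both lower, by 3.11-fold, but edgeR did not call the gene (log2 -1.64 ± 0.32 SE, adjusted p = 0.0151). It was called by DESeq2 (adjusted p = 0.000204) and by edgeR without P6 GFP+ replicate 1 (log2 -1.33, adjusted p = 0.00116) or replicate 2 (log2 -1.99, adjusted p = 7.32e-05). The gene *A930024N18Rik* covers 20.5% of the *Dll1* exon bases, so part of its reads cannot be assigned.

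Of the fringes, *Lfng* and *Mfng* were higher in GFP+ cells and *Rfng* differed little. *Lfng* (ENSMUSG00000029570, chr5:141083295-141091497, plus strand), lunatic fringe, was at 2460 and 2821 CPM in P1 GFP+ and 17.2 and 32.5 CPM in P1 GFP- cells. At P6 it was at 3755 and 2365 CPM in GFP+ and 45.8 and 28.5 CPM in GFP- cells. The fitted differences of 114-fold at P1 and 82.1-fold at P6 check that the sort followed the gene and are no finding, and counts of the endogenous gene and of any *Lfng* sequence transcribed from the transgene cannot be told apart.

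Because *Lfng* regulatory sequence defined the GFP+ cells, the sequence just before its annotated start is shown, beside those of *Jag1*, which was also high in GFP+ cells, and *Notch4*, which was low. The windows come from RefSeq promoter sequences (GRCm38.p6), were located in NCBIM37 by exact match, and end at the base before the annotated gene. Capitals mark matches, on either strand, to the RBPJ core TGGGAA, which reads TTCCCA on the other strand, to the longer GTGGGAA and to the E-box CACGTG that Hes and Hey repressors can bind. In *Lfng*, TTCCCA begins at -135, CACGTG at -112 and GTGGGAA at -109, so that the last 2 overlap, and TGGGAA at -108 lies within GTGGGAA.
Lfng, chr5:141083045-141083294, plus strand: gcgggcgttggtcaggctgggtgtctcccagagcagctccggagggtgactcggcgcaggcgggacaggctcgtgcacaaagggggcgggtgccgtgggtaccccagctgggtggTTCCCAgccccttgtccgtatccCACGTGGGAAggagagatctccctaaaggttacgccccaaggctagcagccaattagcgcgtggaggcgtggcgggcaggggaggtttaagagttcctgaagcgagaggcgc
Jag1, chr2:136942381-136942506, minus strand: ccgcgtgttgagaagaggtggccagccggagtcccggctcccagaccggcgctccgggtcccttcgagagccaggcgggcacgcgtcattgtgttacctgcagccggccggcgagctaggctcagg
Notch4, chr17:34700990-34701212, plus strand: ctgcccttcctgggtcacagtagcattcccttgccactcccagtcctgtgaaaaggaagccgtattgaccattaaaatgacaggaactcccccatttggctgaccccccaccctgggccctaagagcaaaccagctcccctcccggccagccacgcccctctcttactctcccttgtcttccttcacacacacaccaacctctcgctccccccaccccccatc
*Lfng* was the only 1 of the 9 genes with a RefSeq promoter window (*Mfng* had none) in which any of these motifs was found. Over all 32851 promoter windows of the same length, 25.6% held TGGGAA, 6.38% GTGGGAA and 7.15% CACGTG. A match is a description of the letters and not evidence of binding. The printed windows also differ in CpG content. There were 18 CG dinucleotides in the 250 bases of *Lfng*, 14 in the 126 bases of *Jag1* and 4 in the 223 bases of *Notch4*. Over the full promoter windows, which are of equal length, *Lfng* and *Jag1* had 22 each and *Notch4* had 5. *Notch2*, also low in GFP+ cells, had 41, and *Jag2*, high in them, had 63. *Notch4* had the fewest of the 9 genes, and the contrast with it did not extend to *Notch2*.

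*Mfng* (ENSMUSG00000018169, chr15:78586312-78603905, minus strand), manic fringe, was at 26.4 and 33.9 CPM in P1 GFP+ and 5.17 and 4.96 CPM in P1 GFP- cells. It was 6.38-fold higher in GFP+ cells (log2 2.67 ± 0.16 SE, edgeR adjusted p = 6.72e-05). At P6 it was at 21.4 and 16.7 CPM in GFP+ and 3.66 and 3.75 CPM in GFP- cells, 5.12-fold higher (log2 2.35 ± 0.24 SE, edgeR adjusted p = 0.00256). Both GFP+ libraries were above both GFP- libraries at each age, and the P6 difference was log2 2.40 without P6 GFP- replicate 1 (edgeR adjusted p = 0.0230) and log2 2.36 without replicate 2 (edgeR adjusted p = 0.0337), not called in these fits with few calls or none. The longest stretch that transcripts of *Mfng* share with those of *Lfng* is 30 bases, and over all 45 pairs of the 10 genes it is 11 to 32 bases, well under the read length of 100 bases.

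*Rfng* (ENSMUSG00000025158, chr11:120642060-120645521, minus strand), radical fringe, was the most even of the 10 genes. It was at 31.1 and 34.7 CPM in P1 GFP+ and 41.4 and 47.8 CPM in P1 GFP- cells, and at 37.3 and 35.1 CPM in P6 GFP+ and 43.5 and 51.7 CPM in P6 GFP- cells. The GFP+ libraries were lower at both ages without overlap, by 1.26-fold at P1 (log2 -0.34 ± 0.11 SE, edgeR adjusted p = 0.0417) and 1.32-fold at P6 (log2 -0.40 ± 0.16 SE, edgeR adjusted p = 0.113), and neither difference was called. Without P1 GFP- replicate 1 the P1 difference was log2 -0.46 and was called (edgeR adjusted p = 0.000318).

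**Figure D3:**
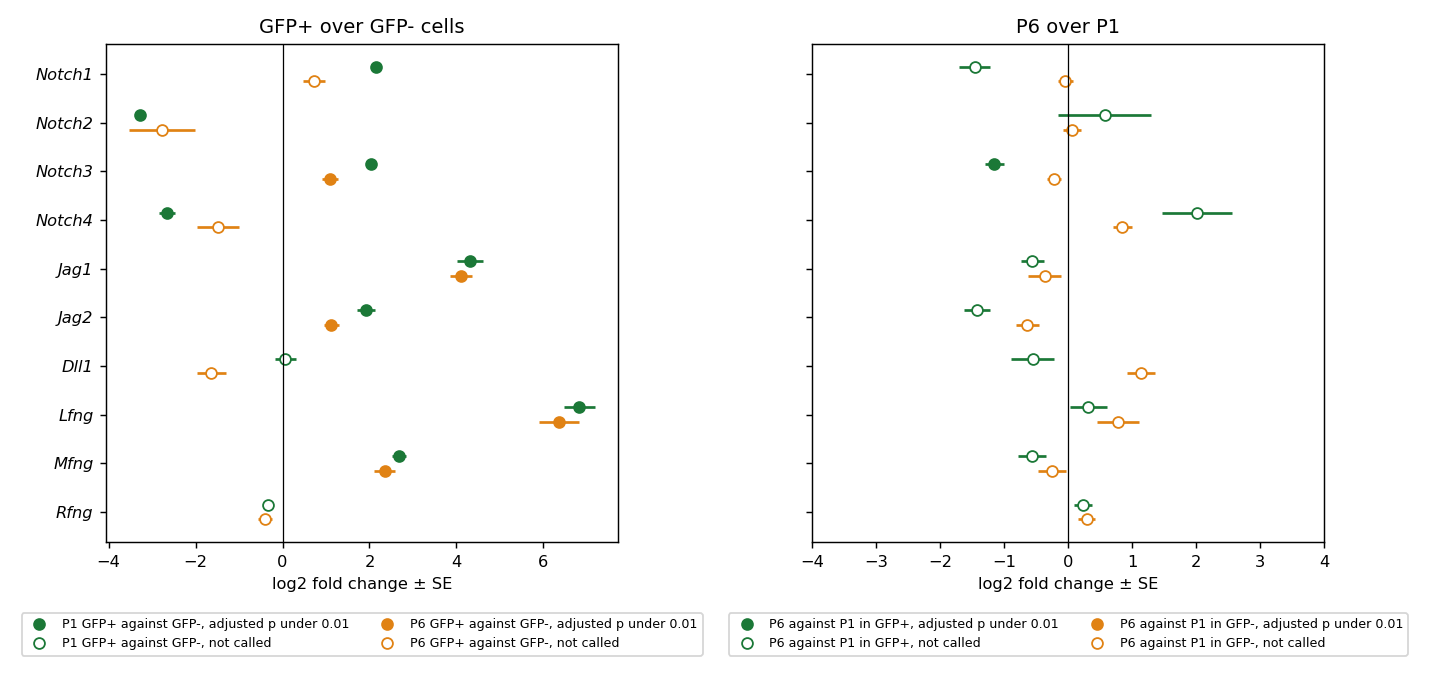
Log2 fold change ± SE of the 10 genes from edgeR, for GFP+ over GFP- cells at P1 (green) and P6 (orange) on the left, and for P6 over P1 in GFP+ (green) and GFP- cells (orange) on the right. Filled points have an adjusted p below 0.01. *Jag1* was above log2 4 and *Lfng* above log2 6 at both ages on the left, and only *Notch3* in GFP+ cells (log2 -1.16) is filled on the right.

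Expressed as shares of their family per kilobase, the composition differed between the fractions. *Notch1* and *Notch3* together made up most of the receptor transcript in GFP+ cells, with 56.3% and 52.8% *Notch1* and 41.7% and 45.1% *Notch3* in the P1 libraries and 44.8% and 46.9% *Notch1* and 51.1% and 40.9% *Notch3* at P6. *Notch2* was at most 8.59% in GFP+ libraries (P6 replicate 2) and 38.1% to 44.1% in GFP- libraries. *Jag1* was 93.3% to 97.2% of the 3 ligands in GFP+ and 70.3% to 77.3% in GFP- cells, and *Dll1* did not exceed 0.293% in GFP+ but reached 8.12% and 10.5% in P6 GFP- cells. *Lfng* was 97.9% to 98.6% of fringe transcript in GFP+ cells, while *Rfng* was 45.0% to 64.0% in GFP- cells. Because *Lfng* regulatory sequence selected the cells, this contrast in the fringe shares follows the sort and is no finding. With the longest transcript as length, *Notch1* was 54.7% to 65.9% of receptor transcript in GFP+ cells and *Notch2* 32.7% to 37.9% in GFP- cells.

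**Figure D4:**
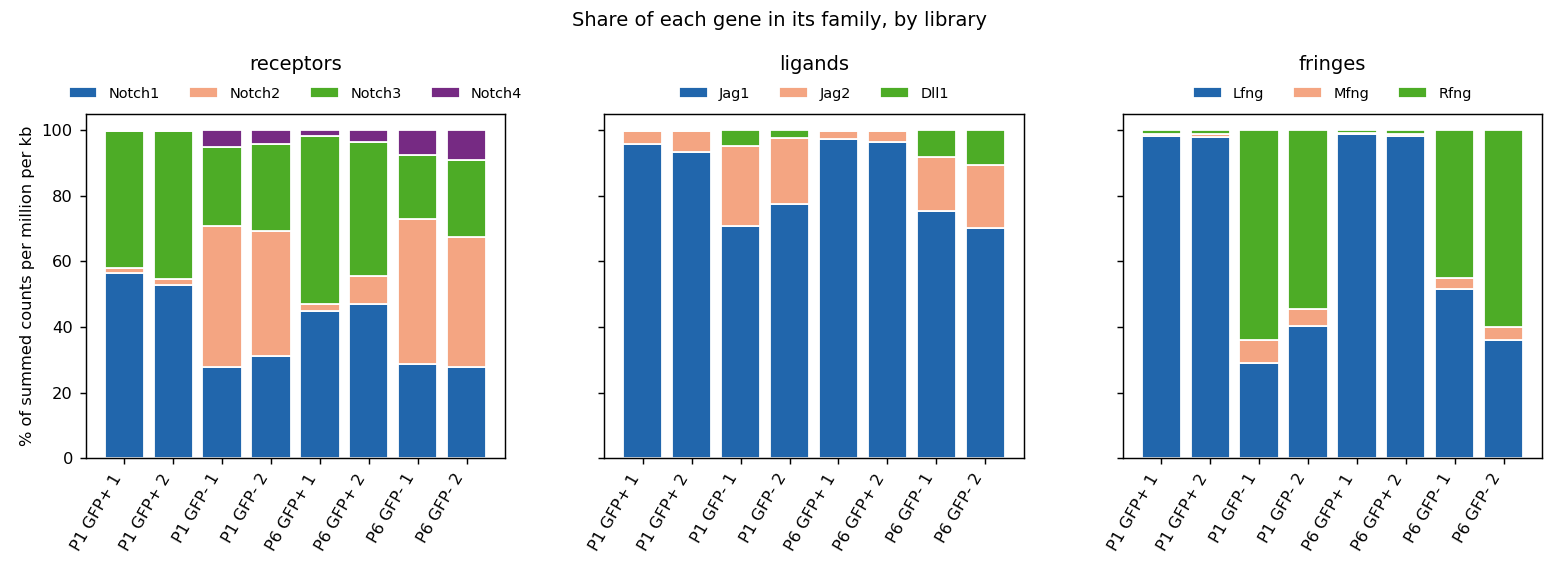
Share (%) of each gene in the summed CPM per kilobase of the 4 receptors, 3 ligands and 3 fringes, for each of the 8 libraries (stacked bars from 0 to 100). *Notch2* takes 38.1% to 44.1% of the receptor bars in GFP- libraries and at most 8.59% in GFP+ libraries.

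P6 cells were compared with P1 cells of the same fraction to ask how these components change over the first postnatal week. These comparisons use the same libraries as those above, so their values are not independent of them. In GFP+ cells edgeR called 0 of 10 genes higher (2.86% of all genes tested) and 1 lower, *Notch3* (1.95%). None was both called and past 4-fold in either direction, as 1.63% and 0.93% of all genes were. The fits without P6 GFP+ replicate 1 or replicate 2, in which further genes were called, called 3768 higher and 2636 lower of 18158 genes and 3927 and 3604 of 17415, against 493 and 335 of 17213 with both. At an unadjusted p below 0.05, 1 gene was higher (*Notch4*) and 5 were lower, beside 21.1% and 17.1% of all genes. DESeq2 called 1 higher (*Notch4*) and 3 lower (*Notch1*, *Notch3* and *Jag2*), beside 1904 and 1133 of all 17213 genes. *Notch3* fell from 485 and 534 CPM to 193 and 234 CPM, by 2.24-fold (log2 -1.16 ± 0.15 SE, edgeR adjusted p = 0.00931). Its call was lost with library totals as the scaling (edgeR adjusted p = 0.0102) and without P1 GFP+ replicate 1 (0.0303) or replicate 2 (0.0901).

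*Notch1* went from 1159 and 1107 CPM at P1 to 300 and 475 CPM at P6 in GFP+ cells, 2.75-fold lower without overlap, though edgeR did not call it (log2 -1.46 ± 0.24 SE, adjusted p = 0.0176). It was called without P6 GFP+ replicate 1 (log2 -1.19, edgeR adjusted p = 4.56e-08) or replicate 2 (log2 -1.79, edgeR adjusted p = 3.19e-14), and with all 8 libraries in the fit (edgeR adjusted p = 0.00205). *Jag2* was at 61.9 and 91.0 CPM at P1 and 25.1 and 27.9 CPM at P6 (log2 -1.43 ± 0.20 SE, edgeR adjusted p = 0.0120), and was called with all 8 libraries in the fit (edgeR adjusted p = 0.00222) and without P1 GFP+ replicate 1 (0.00194), P6 GFP+ replicate 1 (2.33e-07) or P6 GFP+ replicate 2 (6.46e-10). The summed hair cell markers moved the same way, from 742 and 866 CPM in P1 GFP+ to 451 and 528 CPM in P6 GFP+ cells. Of these 10 markers, *Atoh1* (8.41-fold), *Barhl1* (4.63-fold) and *Myo7a* (3.31-fold) were called lower at P6 and none higher, and their part in the *Jag2* values was not tested. The 8 endothelial markers rose with age in GFP+ cells, from 38.3 and 33.5 CPM summed at P1 to 90.3 and 326 CPM at P6. Their median change was log2 2.65, and all 8 were higher at an unadjusted edgeR p below 0.05, though 0 were called. Their part in the *Notch4* values was not tested. *Notch4* was higher at P6 too, with 6.75 and 21.2 against 3.29 and 4.10 CPM (log2 2.01 ± 0.54 SE, edgeR adjusted p = 0.0574). It was called at log2 1.01 without P6 GFP+ replicate 2 (edgeR adjusted p = 0.000710) and at log2 2.60 without replicate 1 (edgeR adjusted p = 7.32e-11).

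For *Notch2* the P6 GFP+ libraries lay on either side of the P1 libraries (11.1 and 64.3 against 26.1 and 27.9 CPM), and the direction depended on which was used. The log2 change was 0.57 ± 0.73 SE with both (edgeR adjusted p = 0.600), -1.16 without replicate 2 (edgeR adjusted p = 8.20e-08) and 1.32 without replicate 1 (edgeR adjusted p = 1.33e-09). No direction with age can be given for this gene. *Jag1* was at 1324 and 1173 CPM at P6 against 2043 and 1888 CPM at P1, 1.48-fold lower without overlap (log2 -0.56 ± 0.18 SE, edgeR adjusted p = 0.0879), and was called without P6 GFP+ replicate 1 (0.000139) or replicate 2 (0.00197). *Mfng* was 1.48-fold lower at P6 (log2 -0.57 ± 0.21 SE, edgeR adjusted p = 0.119) and called without P6 GFP+ replicate 1 (edgeR adjusted p = 0.000137). *Dll1* (log2 -0.56 ± 0.34 SE), *Rfng* (log2 0.23 ± 0.14 SE) and *Lfng* (log2 0.31 ± 0.29 SE) were not called, with edgeR adjusted p from 0.273 to 0.466. *Lfng* was called without P6 GFP+ replicate 2 (log2 0.63, edgeR adjusted p = 3.69e-05), and its age values follow cells sorted on its own regulatory sequence at each age.

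In GFP- cells edgeR called 0 of 10 genes higher (5.04% of all genes tested) and 0 lower (2.34%) at P6, and so none past 4-fold (1.43% and 0.418%). Over all genes it called 954 higher and 443 lower, and 1505 and 1426 without P1 GFP- replicate 1, 1826 and 1203 without P1 GFP- replicate 2, 218 and 31 without P6 GFP- replicate 1 and 334 and 34 without P6 GFP- replicate 2. At an unadjusted p below 0.05, 2 were higher (*Notch4* and *Dll1*) and 1 lower (*Jag2*), beside 18.4% and 16.0% of all genes. DESeq2 called 2 higher and 0 lower, beside 1852 and 1198 of all 18920 genes. *Dll1* was at 6.14 and 7.03 CPM at P6 against 3.72 and 3.15 CPM at P1, a 2.19-fold difference without overlap (log2 1.13 ± 0.22 SE, edgeR adjusted p = 0.0153). It was called without P1 GFP- replicate 1 (edgeR adjusted p = 0.00135) or replicate 2 (0.00861). *Notch4* was at 36.4 and 41.9 against 27.6 and 22.3 CPM, 1.79-fold higher at P6 (log2 0.84 ± 0.15 SE, edgeR adjusted p = 0.0103), just short of the threshold, and was called without P1 GFP- replicate 1 (edgeR adjusted p = 6.43e-05) or replicate 2 (0.00305). *Jag2* was at 11.9 and 12.3 against 18.5 and 24.7 CPM (log2 -0.64 ± 0.18 SE, edgeR adjusted p = 0.0458) and was called without P1 GFP- replicate 1 (0.000621).

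The remaining genes were not called with age in GFP- cells. *Notch1* and *Notch2* had log2 changes of -0.05 and 0.05, *Notch3* -0.23, *Mfng* -0.26 and *Rfng* 0.28, with edgeR adjusted p from 0.169 to 0.835. *Lfng* (log2 0.78 ± 0.33 SE, 1.71-fold, edgeR adjusted p = 0.151) was called without P1 GFP- replicate 2 (0.000144), and *Jag1* (log2 -0.37 ± 0.25 SE, edgeR adjusted p = 0.343) without P1 GFP- replicate 1 (0.00132). For explants, the study's methods describe a dissection that separated off the lateral wall at the younger ages and removed it only in part at the older ages, so age and the tissue dissected cannot be told apart in these comparisons.

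A fit to all 8 libraries with an interaction term for age by fraction tested whether the GFP+ to GFP- ratio differed between the ages. The edgeR test called 0 of 9 genes in either direction, against 0.946% of all genes upward and 0.988% downward. At an unadjusted p below 0.05, 4 of the 9 had a smaller ratio at P6 and 0 a larger one, beside 8.98% and 12.3% of all genes. DESeq2 called 3 downward (*Notch1*, *Notch3* and *Dll1*), beside 548 downward and 891 upward of all 19233 genes. The interaction was log2 -1.44 ± 0.29 SE for *Notch1* (edgeR adjusted p = 0.0265), log2 -0.96 ± 0.20 SE for *Notch3* (0.0290), log2 -1.71 ± 0.39 SE for *Dll1* (0.0435) and log2 -0.81 ± 0.29 SE for *Jag2* (0.147). The fits without P6 GFP+ replicate 1 or replicate 2 called 1044 higher and 363 lower, and 426 and 748, of all genes, against 182 and 190 with both. *Notch1* was called without P6 GFP+ replicate 1 (log2 -1.17, edgeR adjusted p = 0.00398) or replicate 2 (log2 -1.78, 0.000802), and *Notch3* without replicate 2 (log2 -1.08, 0.00591). *Notch2* was called in opposite directions, at log2 1.23 without P6 GFP+ replicate 1 (edgeR adjusted p = 0.00405) and log2 -1.24 without replicate 2 (0.00741), and *Notch4* was called without replicate 1 (log2 1.72, 0.00215). *Jag1*, *Mfng* and *Rfng* had interactions of log2 -0.21 ± 0.38, -0.33 ± 0.28 and -0.08 ± 0.19 SE, so that for *Jag1* the 19.9-fold and 17.3-fold differences at the 2 ages were within their error.

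Another 44 genes of the pathway, in 7 lists by their role, were examined beside these 10. In GFP+ against GFP- cells, 15 of 44 were called higher and 7 lower at P1 (16.6% and 20.7% of all genes), and 5 of 43 tested were called higher and 3 lower at P6 (7.72% and 5.19% of all genes), so that the counts of lower genes lay near those of all genes. The clearest group was the targets of the pathway, of which 6 of 6 were higher at P1 and 5 of 6 at P6 (6 of 6 without P6 GFP+ replicate 2). *Hes5*, a repressor that holds back hair cell fate, was at 121 and 200 CPM in P1 GFP+ and 22.1 and 16.3 CPM in P6 GFP+ cells against at most 0.761 CPM in any GFP- library. It fell 7.82-fold from P1 to P6 in GFP+ cells (log2 -2.97 ± 0.30 SE, edgeR adjusted p = 0.00560). With both replicates of each age it was the only pathway gene that edgeR called with age there, where DESeq2 called 5 higher and 8 lower. Leaving out a P6 GFP+ replicate added edgeR calls among the targets and other lists. *Heyl* was 5.44-fold higher in GFP+ cells at P1 and 14.0-fold at P6, and *Hey2* 13.1-fold and 10.2-fold. *Hey1* was 25.5-fold higher at P1 and 4.35-fold at P6, and *Nrarp* 21.2-fold and 6.40-fold. Their interactions were not called by edgeR with all libraries (adjusted p = 0.0109 and 0.0257). Without P6 GFP- replicate 1 the P6 difference of *Hey1* was log2 2.34 and was not called (edgeR adjusted p = 0.0169). Without P6 GFP- replicate 2, where no gene was called, the differences were log2 7.15 for *Hes5*, 1.97 for *Hey1*, 3.36 for *Hey2*, 3.85 for *Heyl* and 2.72 for *Nrarp* (edgeR adjusted p from 0.0124 to 0.0345).

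The other ligands divided in direction. Of these 5, 2 were called higher and 2 lower at P1, and 0 were higher and 2 lower of 4 tested at P6. *Dll3*, named after its values were seen, was 2.95-fold higher in P1 GFP+ cells (edgeR adjusted p = 0.00811). Between the P6 fractions it did not pass the filter on low counts. In GFP+ cells it was 24.7-fold lower at P6 than at P1 but was not called (edgeR adjusted p = 0.0130). *Dlk2* was 5.85-fold higher in P1 GFP+ cells (edgeR adjusted p = 0.000577). Its P6 difference of 4.51-fold was not called (edgeR adjusted p = 0.0173), but was by DESeq2 and by edgeR without P6 GFP+ replicate 1 (log2 1.91) or replicate 2 (log2 2.44). In contrast, *Dlk1* and *Dner* were lower by 11.4-fold and 9.59-fold at P1 and by 5.58-fold and 6.77-fold at P6. Neither was called at P6 without P6 GFP- replicate 1 (log2 -2.37 and -2.59) or replicate 2 (log2 -2.56 and -2.89). *Dll4*, the endothelial Delta ligand, was not called at either age, at 3.71 CPM in P6 GFP+ replicate 1 and 11.5 CPM in replicate 2, and is named after its values were seen. Of the 5 receptor glycosylation genes 1 was called with all libraries, *Gxylt2*, 13.8-fold lower in P1 GFP+ cells (edgeR adjusted p = 8.52e-05), and at P6 (edgeR adjusted p = 0.0198) it was called by DESeq2 and by edgeR without P6 GFP+ replicate 1 (log2 -2.06) or replicate 2 (log2 -4.23). Of the 5, 3 were called lower at P6 without P6 GFP+ replicate 2 or with all 8 libraries in the fit, and 3 at P1 without P1 GFP- replicate 2. The receptor cleavage genes, which include the gamma-secretase subunits, had 3 of 10 called higher and 1 lower at P1, none of them past 4-fold. At P6 edgeR and DESeq2 both called 0 of 10, while 3 had an unadjusted p below 0.05 upward and 2 downward. Without P6 GFP+ replicate 2 edgeR called 3 higher and 2 lower, without P6 GFP+ replicate 1 it called 1 higher and 0 lower, and with all 8 libraries in the fit 1 higher and 2 lower. Those for ligand endocytosis had 0 of 4 called by either tool at both ages, with 2 at P1 and 1 at P6 upward at an unadjusted p below 0.05. By edgeR 1 was called higher at P6 without P6 GFP+ replicate 2, and at P1 1 was higher and 1 lower without P1 GFP- replicate 1 and 2 were higher without P1 GFP- replicate 2. Those for receptor turnover had 3 of 7 higher and 1 lower at P1, and 0 by either tool at P6, where 2 were higher and 1 lower at an unadjusted p below 0.05 and edgeR called 1 lower without P6 GFP+ replicate 2. At P1 this list had 0 higher without either P1 GFP+ replicate.

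The nuclear complex and its repressors had 1 of 7 higher and 2 lower at P1, and 1 lower at P6, where 1 was higher and 6 were lower without P6 GFP+ replicate 2 and 3 were lower without replicate 1. *Rbpj*, the DNA-binding partner of the receptors and named after its values were seen, was lower in GFP+ cells at both ages, with 68.0 and 58.7 against 142 and 131 CPM at P1 (log2 -0.998 ± 0.12 SE, edgeR adjusted p = 0.000879) and 46.1 and 51.3 against 92.6 and 86.7 CPM at P6 (log2 -0.89 ± 0.15 SE, edgeR adjusted p = 0.00970). Its P6 call lay at the threshold and was lost with the DESeq2 size factors (edgeR adjusted p = 0.0101), library totals (0.0121) and without P6 GFP- replicate 1 (log2 -0.78, 0.118) or replicate 2 (log2 -0.95, 0.0752). The median log2 change over the 44 genes was 0.26 at P1 and -0.01 at P6, beside 0.01 and -0.02 over all genes tested. By edgeR 0 of the 44 pathway genes were called lower with age in GFP- cells. At an unadjusted p below 0.05, 7 were lower, beside 16.0% of all genes, and DESeq2 called 2 lower. Called higher at P6 were 3 of the 44, a share near the 5.04% of all genes. These 3 are likewise named after their values were seen. They were *Hey1* (3.03-fold), *Furin* (1.76-fold), the protease that matures the receptor, and *Adam17* (1.54-fold), a sheddase. Each of these lost its call with library totals as the scaling (edgeR adjusted p = 0.0208, 0.0125 and 0.0285) and without P6 GFP- replicate 1 (0.0646, 0.0344 and 0.0631) or replicate 2 (0.0289, 0.0136 and 0.0401), and *Adam17* also without P1 GFP- replicate 2 (0.0180).

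**Figure D5:**
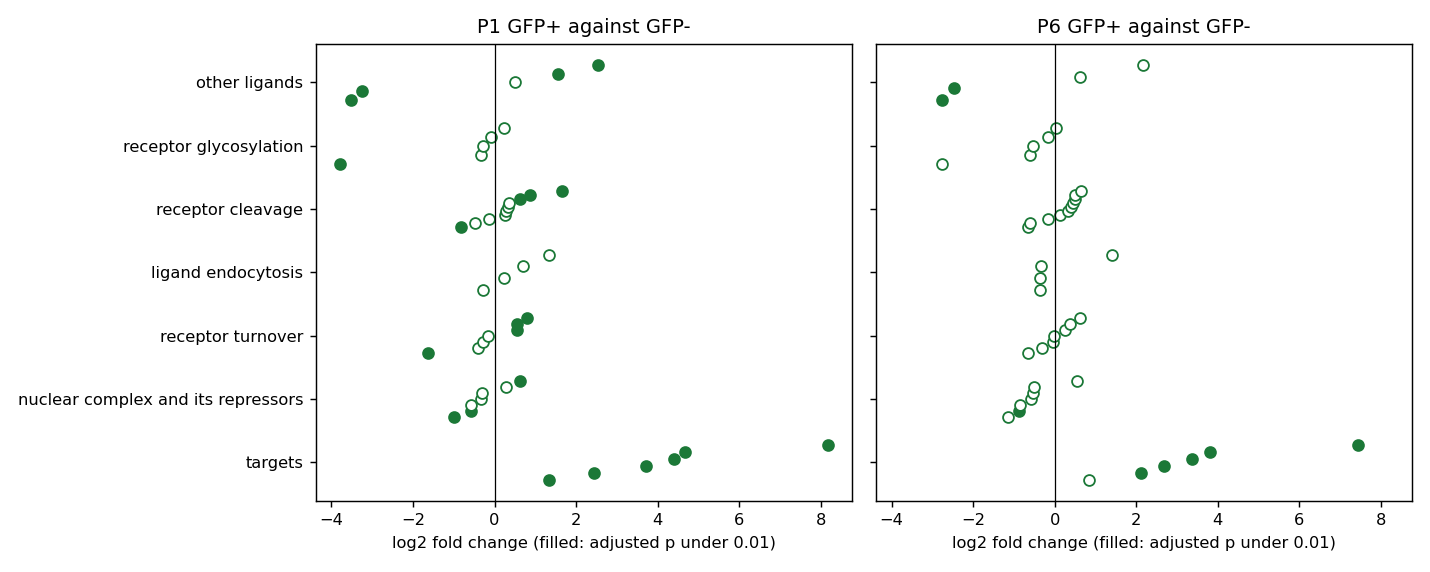
Log2 fold change of GFP+ over GFP- cells from edgeR for the 44 other pathway genes, in 7 lists by role, at P1 (left) and P6 (right, 43 genes tested). Each point is a gene and filled points have an adjusted p below 0.01. The targets are all above 0 at both ages, up to log2 8.17 for *Hes5* at P1.

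Each of the 10 genes was also set beside the genes whose levels followed it most closely over the 8 libraries, by Pearson correlation of log2(CPM + 1) among 12462 genes. The 8 points fall into 4 groups and share the contrast between the fractions, so the values describe these libraries only. *Jag1* was closest to *Emx2*, a homeobox gene of the sensory epithelium (r = 0.999), *Zfp667* (0.999) and *Agr3* (0.999), and *Lfng* to *Tmprss3*, a deafness gene (0.999), *Trpv4* (0.999) and *Snx25* (0.998). *Mfng* followed *Wdsub1*, *Tbc1d14* and *Eepd1* (0.996 each). *Notch1* followed *Dnmbp*, *Wdfy1* and *Tulp4* (0.990 each) and *Notch3* followed *E330009J07Rik* (0.996), *Pkd2l1* (0.995) and *D030047H15Rik* (0.994).

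The receptors that were low in GFP+ cells had other neighbors. *Notch2* was closest to *Tln2* (0.999), *Ttc28* (0.998) and *Lrp1* (0.997), and *Notch4* to *Plxnd1*, a semaphorin receptor of endothelium (0.995), *Ltbp2* (0.995) and *Tnxb* (0.994). *Jag2* was closest to *Tkt* (0.991), *Ric3* (0.990) and *Gm15446* (0.989). The likeness was lowest for *Dll1*, with *Tm7sf3* (0.980), *Sorcs2* (0.964) and *Efcab4a* (0.964), and for *Rfng*, with *Mob3c* (0.960) and *Plk3* (0.958).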

How the data were processed

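Duplicate samples of GFP+ and GFP- cells were sorted at P1 and P6 and sequenced as paired 100-base reads from a TruSeq kit. Each deposited table lists raw counts for Ensembl genes, made by the authors by alignment to mm9 with TopHat (version 1.4.0 in the submitters' processing notes) and counting with HTSeq, with no normalization. The counting mode is not given in the sources used here. Of all counts listed, 64.7% to 76.2% were on genes, and those on no gene, on several genes or at several places were left out, so depth was 17769024 to 67695039 counts and low genes are known with less precision. Symbols and exon lengths came from the NCBIM37 annotation (34391 of 36536 genes).

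Each comparison was fitted on its 4 libraries with edgeR 4.0.16 in R 4.3.3 (filterByExpr with a minimum count of 10 and total of 15, TMM, quasi-likelihood test, Benjamini-Hochberg adjustment), and the interaction on all 8. A gene was called at p and adjusted p below 0.01, with a fold change above 4 given as a further criterion. Levels were compared between genes as CPM per kilobase of the union of exons. DESeq2 1.42.0 was an alternative, and the others were DESeq2 size factors or library totals in edgeR, no low-count filter, all 8 libraries in each fit, a replicate block, each replicate left out, and, for levels, the longest transcript as length or the TMM library size. A crossed replicate block was chosen after seeing the data. The procedure was tested on simulated data.

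The 10 genes, the pathway and marker lists and the tests were chosen with earlier results of these data known. The text names all 10, of the other pathway genes those called past 4-fold, and for each of the 10 the 3 genes of highest correlation with a mean of at least 5 CPM, except 1 that is not reported here. Marker lists covered supporting, hair, endothelial, pericyte and smooth muscle, macrophage, Schwann, mesenchyme, neuron and melanocyte genes. Figures were drawn with matplotlib 3.10.9 in Python 3.11.15.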

Additional observations from a re-analysis of the deposited data

Results flagged for a closer look

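No group has enough samples for a test of single libraries against the rest. The 2 pathway genes beyond the 10 whose GFP+ to GFP- ratio differed between P1 and P6 in the interaction test of edgeR over all 8 libraries moved in opposite directions. *Heyl*, a target of the pathway, was at 268 and 258 CPM in P1 GFP+ and 466 and 448 CPM in P6 GFP+ cells, against 47.8 and 56.3 CPM in P1 GFP- and 31.2 and 33.7 CPM in P6 GFP- cells, an interaction of log2 1.35 (edgeR adjusted p = 0.00702). *Psen2*, a presenilin of the gamma-secretase complex that is named after its values were seen, was at 59.0 and 69.5 CPM in P1 GFP+ and 29.5 and 27.2 CPM in P6 GFP+ cells, against 22.3 and 21.8 CPM in P1 GFP- and 21.0 and 22.0 CPM in P6 GFP- cells, an interaction of log2 -1.26 (edgeR adjusted p = 0.00820). No group overlapped between the ages for either gene in GFP+ cells. Both calls were kept without either P6 GFP+ replicate and lost without any 1 of the other 6 libraries, with log2 1.32 to 1.51 for *Heyl* (edgeR adjusted p from 0.0115 to 0.0606) and log2 -1.37 to -1.14 for *Psen2* (edgeR adjusted p from 0.0270 to 0.0751). Those 6 fits called 13 to 181 higher and 15 to 69 lower of all genes, against 182 and 190 with all libraries and 426 to 1044 and 363 to 748 without a P6 GFP+ replicate.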

How the results depend on the processing

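Of the values of the 10 genes under the alternatives, 454 kept direction and call, 66 gained a call, 14 lost one and 16 changed sign. The P1 calls between fractions stayed at 5 higher and 2 lower, except for 3 lower without P1 GFP- replicate 1. In P6 GFP+ against GFP- cells, 0 lower became 1 with DESeq2, 3 with no filter (1 past 4-fold) and 2 with all 8 libraries in the fit (1 past 4-fold), and leaving out a replicate gave 0 to 5 higher, 0 to 3 lower and 0 to 2 past 4-fold either way. Over all genes the same fits called 0 to 3428 higher and 0 to 4339 lower, so these ranges move with the fit. With age in GFP+ cells, 0 higher and 1 lower became 0 lower with library totals, 1 higher (past 4-fold) and 3 lower with DESeq2, 1 higher and 3 lower with no filter, 3 lower with all 8 libraries, and 0 to 2 higher (0 to 1 past 4-fold) and 0 to 5 lower without a replicate. With age in GFP- cells, 0 and 0 became 1 higher with DESeq2 size factors, 2 higher with DESeq2, 3 higher and 1 lower with no filter, and 0 to 3 higher and 0 to 2 lower without a replicate. For the interaction, 0 and 0 became 3 lower with DESeq2, 1 higher and 3 lower with no filter, and 0 to 2 higher and 0 to 3 lower without a replicate. With the longest transcript as length, 3 of 10 genes held their place in the P6 GFP- order. The cause of these shifts was not tested, and with 2 libraries a group, leaving 1 out takes its spread from the others.

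Library totals put the median log2 change of all genes at -0.21 with age in GFP- cells and 0.16 in the interaction (-0.02 and 0.03 as reported). Sign changes with library totals were those of *Dll1* at P1 (log2 -0.043), *Notch2* with age in GFP- cells (-0.14) and the *Rfng* interaction (0.042). The others came from leaving out a replicate, which gave log2 -0.093 to 0.22 for *Dll1* at P1, -0.094 to 0.63 for *Lfng* and -1.16 to 1.32 for *Notch2* with age in GFP+ cells, -0.080 to 0.17 for *Notch2*, -0.74 to 0.078 for *Jag1* and -0.11 to 0.027 for *Notch1* with age in GFP- cells, and -0.59 to 0.18 for *Jag1*, -0.17 to 0.060 for *Rfng* and -1.24 to 1.23 for *Notch2* in the interaction.

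Of the 44 other pathway genes, leaving out a replicate gave 9 to 19 higher and 5 to 13 lower at P1, 0 to 12 and 0 to 14 at P6, 0 to 8 and 1 to 16 with age in GFP+, 0 to 4 and 0 to 5 with age in GFP- cells, and 0 to 2 and 0 to 3 in the interaction. DESeq2 gave 6 lower at P6, 5 and 8 and 5 and 2 with age, and 2 and 3 in the interaction, no filter gave 6 lower, 5 and 11, 5 and 4, and 2 and 4, all 8 libraries gave 8 and 11 at P6, 4 and 5 with age in GFP+ and 1 higher in GFP- cells, and library totals gave 1 lower at P6, 3 lower with age in GFP+ and 0 higher in GFP- cells, and 0 lower in the interaction.

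The correlation of replicate differences by replicate number was 0.0568 and 0.0625 between fractions and -0.194 and -0.337 between ages. These values cannot show whether GFP+ and GFP- samples of a number came from the same cochleas, since each sort can vary separately. With the replicate block, 3 of the 10 genes were lower with age in GFP+ cells, 3 were higher in P6 GFP+ cells (the *Jag2* call was lost), and the interaction called 0 pathway genes higher and 0 lower in place of 1 and 1 (*Heyl* and *Psen2*, adjusted p = 0.0200 and 0.0231). A crossed block, chosen after seeing the data, gave 0 higher and 1 lower of the 10 in GFP+ and 3 higher and 0 lower in GFP- cells, and 1 higher and 5 lower, and 4 higher and 2 lower, of the pathway genes.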

Other observations

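The sums of the other marker lists were as follows. The Schwann cell markers summed to 424 and 555 CPM in P1 GFP+, 817 and 875 CPM in P1 GFP-, 1188 and 2427 CPM in P6 GFP+ and 1481 and 1712 CPM in P6 GFP- cells. The macrophage markers stood at 16.0 to 73.4 CPM in GFP+ and 138 to 382 CPM in GFP- libraries, the melanocyte markers at 8.49 to 99.0 and 280 to 698 CPM, and the neuron markers at 45.0 to 91.0 and 93.6 to 526 CPM. *Mlana* was at 0 in both P1 GFP+ libraries and *Tyrp1* in replicate 2 of them, while *Atoh1* was at 0 in P6 GFP- replicate 2.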
